A study of Mus musculus with 24 samples.

Results

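The 33 genes described here encode the enzymes of glycolysis, the enzymes that tune its pace, and the carriers that bring glucose in and take lactate out. The list was set by symbol and known function, without a threshold on any measured value but with earlier results of these data known, and all 33 were found among the 24091 genes of the count table. Of them, 32 passed the filter on low counts and were tested, and the muscle phosphoglycerate mutase gene Pgam2, with 0 to 7 counts in a library, was not. The genes were measured in LSKs, the Lin-Sca-1+c-Kit+ fraction of mouse bone marrow that holds stem cells and the earliest progenitors.

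Glycolysis turns glucose into pyruvate in the cytosol and yields ATP without oxygen. Pyruvate then enters the mitochondria or is reduced to lactate, which leaves the cell with a proton. Most steps can be run by several isoenzymes from separate genes, which differ in tissue and in regulation. Blood stem cells in the poorly oxygenated marrow are known to rely on glycolysis, and the transcription factors HIF-1 and MYC are known to raise many of its genes.

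Bulk RNA-seq was available for 24 mice in 4 groups of 6, each with 3 females and 3 males. WT mice were miR-142+/+ without the leukemia transgene, and miR-142 KO mice were miR-142-/- without it. CP CML mice were miR-142+/+BCR-ABL and BC CML mice were miR-142-/-BCR-ABL. In the CML mice, BCR-ABL was switched on for 2 weeks by withdrawing tetracycline, in the SCLtTA/BCR-ABL line on the B6 background, in which the SCL promoter drives the transactivator. The miR-142 knockout was carried by all cells of the animal, so in BC CML it was not confined to LSKs. miR-142 in other cells was not measured here.

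Libraries held 16267965 to 24687077 counts. Mir142 had 68 to 153 counts in each WT and CP CML library and 0 in each of the 12 libraries of miR-142-/- mice, as the labels have it. Library 3 of the miR-142 KO group stood apart. Its counts differed from the other 5 libraries of its group by a chi-square of 54.9 to 67.2 per degree of freedom, against 8.04 to 58.8 among those 5. Calls of members that changed without it are given with and without it, and other results with all libraries unless stated. Library 3 of the WT group held the most macrophage markers of all libraries, 971 CPM over 7 genes (C1qa, Cd5l and others) against 45.1 to 171 in the other WT libraries. It differed from those 5 by a chi-square of 20.2 to 57.7 per degree of freedom, against 19.2 to 40.5 among them. Without it, 11 members and 5168 of all genes passed in BC CML against CP CML, and 21 and 5062 in miR-142 KO against WT. In CP CML against WT 21 members and 6250 of all genes passed, and in BC CML against miR-142 KO 20 and 5469. With all libraries, 5137, 4907, 6143 and 5358 of all genes passed, in the same order. Summed markers of neutrophil-primed progenitors (Elane, Mpo and 5 others) were 1307 to 4920.0 CPM in WT, 4581 to 7796 in CP CML, 2826 to 7679 in miR-142 KO and 5939.6 to 8778 in BC CML, and those of 8 long-term HSC markers were 582.4 to 1160.2, 414 to 583, 299 to 484 and 228 to 349 in the same order. For the neutrophil-primed sum, the lowest miR-142 KO value was that of library 3, with the others at 6276 to 7679. The highest WT value was that of library 3, with the others at 1307 to 2650. Summed mast cell and basophil markers, 7 genes, were 270.0 to 818 CPM in WT, 1439 to 2554 in CP CML, 488 to 3091 in miR-142 KO and 3522 to 7316 in BC CML, and 7 lymphoid-primed markers were at 1126 to 1948, 392 to 732, 335 to 804 and 333 to 559.6. In bulk samples, fewer cells of a type and less RNA per cell cannot be told apart, and the part of this makeup in the results below was not tested.

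The mature miR-142 strands are shown because their loss is what separates BC CML from CP CML and miR-142 KO from WT. Both come from RefSeq (GRCm38.p6, plus strand, chr11:87756867-87756887 for the 5p and chr11:87756903-87756925 for the 3p strand), and capitals mark the seed, bases 2 to 8.
miR-142a-5p: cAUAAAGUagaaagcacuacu
miR-142a-3p: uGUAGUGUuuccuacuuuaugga

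Matches to these seeds, ACTTTAT for the 5p and ACACTAC for the 3p strand, were searched in the longest annotated 3′ UTR of each gene (GENCODE vM21, GRCm38, sense strand only). A 5p match stood in 3 of the 33 members (9.09%) and in 15.9% of 12618 tested genes with a 3′ UTR. A 3p match stood in 1 member (3.03%) and in 6.97% of tested genes. The median 3′ UTR length was 1054 bases in the members and 1178 in the tested genes. The 4 matches are printed because they are the members' only ones, with the 7 matching bases in capitals. They lie at chr13:6581371-6581377 (Pfkp, minus strand), chr9:59679058-59679064 (Pkm, plus), and chr10:125219849-125219855 and chr10:125226160-125226166 (Slc16a7, minus). Both Slc16a7 matches lie beyond the 3′ end that the count table gives for that gene, 125227485.
Pfkp, 5p: atagttatttatcagcACTTTATggaa
Pkm, 5p: aggactggaaaccctgACTTTATcaca
Slc16a7, 5p: gacgtacagcatgttaACTTTATggta
Slc16a7, 3p: tgcccataacaattatACACTACttca

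Promoters were read for 31 members from RefSeq (GRCm38.p6, 250 bases before to 50 after each start, 49 windows), with Slc2a3 and Slc16a7 unmatched. ACGTG and GCGTG, the core letters of a hypoxia response element, and CACGTG, an E-box that contains ACGTG on either strand, were searched on both strands. ACGTG stood in 40.8% of the members' windows and in 25.0% of 13288 windows of tested genes. GCGTG stood in 49.0% against 49.2%, and CACGTG in 10.2% against 9.72%. A match is a run of letters and not a bound site, and on the other strand ACGTG reads CACGT and GCGTG reads CACGC. Windows of 4 members are shown with any matches in capitals, the lactate dehydrogenase gene (the 1 of its 2 windows that holds all 3 motifs), a pair of carriers that rose in several comparisons, and, with no match, the member that fell most. They are chr7:46845554-46845853 (Ldha, plus strand), chr11:120948817-120949116 (Slc16a3, plus), chr2:27027949-27028248 (Slc2a6, minus) and chr3:89136373-89136672 (Pklr, plus). The 4 were picked by motif or by change and do not stand for the list. Aldoc, which fell where miR-142 was absent, holds 1 ACGTG and 2 GCGTG matches at chr11:78322823-78323122. Gpi1 and Tpi1, both higher in CP CML than in WT, hold 0 matches.
Ldha: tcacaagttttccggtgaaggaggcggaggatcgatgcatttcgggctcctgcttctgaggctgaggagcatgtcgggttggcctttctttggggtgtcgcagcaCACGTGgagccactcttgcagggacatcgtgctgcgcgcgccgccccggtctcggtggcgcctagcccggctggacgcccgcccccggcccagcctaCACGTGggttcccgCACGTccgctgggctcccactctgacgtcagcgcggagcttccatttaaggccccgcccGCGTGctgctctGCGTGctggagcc
Slc16a3: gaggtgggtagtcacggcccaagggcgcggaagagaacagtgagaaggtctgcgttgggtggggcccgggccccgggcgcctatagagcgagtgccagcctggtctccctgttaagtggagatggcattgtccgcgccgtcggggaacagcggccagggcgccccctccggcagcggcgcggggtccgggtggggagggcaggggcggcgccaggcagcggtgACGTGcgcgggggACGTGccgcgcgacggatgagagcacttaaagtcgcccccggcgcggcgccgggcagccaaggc
Slc2a6: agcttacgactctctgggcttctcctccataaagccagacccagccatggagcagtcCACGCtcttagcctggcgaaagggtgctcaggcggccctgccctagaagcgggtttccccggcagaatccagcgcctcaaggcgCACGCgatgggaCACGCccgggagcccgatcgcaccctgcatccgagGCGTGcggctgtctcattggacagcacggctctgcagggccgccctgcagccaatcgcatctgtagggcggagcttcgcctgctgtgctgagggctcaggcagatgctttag
Pklr: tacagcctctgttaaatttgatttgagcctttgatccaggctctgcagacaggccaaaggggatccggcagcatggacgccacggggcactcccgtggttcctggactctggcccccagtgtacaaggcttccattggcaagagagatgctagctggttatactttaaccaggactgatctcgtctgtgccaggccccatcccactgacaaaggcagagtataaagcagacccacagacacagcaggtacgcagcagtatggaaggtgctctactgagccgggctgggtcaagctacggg

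Levels were set per length, as RPKM from the TMM-scaled counts and the length column of the table, so that genes could be compared. At a limit of 10 RPKM on the mean of 24 libraries, 16 members were abundant and 17 scarce. Ldha, which reduces pyruvate to lactate, led with a mean of 281 RPKM and 163 to 393 over the libraries. Aldoa (206), Pkm (154), Tpi1 (153) and Gpi1 (136) followed, and their ranges overlapped one another. Of the abundant members, Slc2a1 (12.2) and Ldhb (13.9) were closest to the limit, and below it Bpgm (8.09), Fbp1 (7.78), Pgk1 (7.46) and Pgam1 (6.74) were closest. The plot of levels by library orders the members and shows where the groups part.

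**Figure D1:**
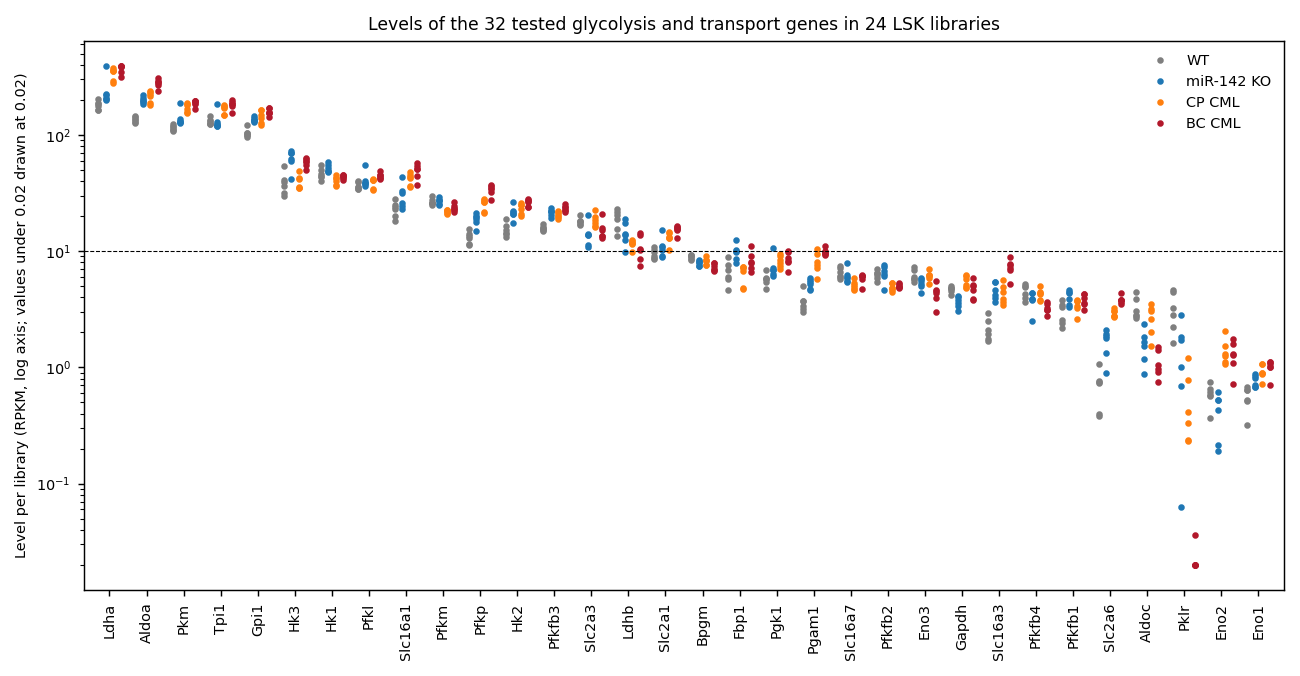
Level of each tested member in RPKM (log axis) in every library, ordered by mean, with 1 colour for each of the 4 groups and a dashed line at 10 RPKM. Ldha, Aldoa, Pkm, Tpi1 and Gpi1 lie above the rest, Pklr falls to 0 in 4 BC CML libraries (drawn at 0.02), and 1 miR-142 KO library lies high for Ldha, Pkm and Tpi1.

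Several enzymes of lower glycolysis had low counts and have near-identical copies elsewhere in the genome. Gapdh, usually one of the most abundant transcripts of a cell, had a mean of 4.64 RPKM, Pgk1 7.46, Pgam1 6.74 and Eno1 0.810. Of the windows of these transcripts that have the length of a read, 78.0% for Gapdh, 67.0% for Pgk1, 39.7% for Pgam1 and 58.8% for Eno1 stood letter for letter in a transcript of another gene. For Gapdh these were 83 genes, 81 of them pseudogenes. No other member passed 23.9% (Pfkfb2), and 23 of the 33 had no such window. Among 12645 tested genes with a transcript, 2.93% passed 35%. A read that fits several genes equally well is left out by a counter that takes uniquely placed reads, and whether this setting was used is not given in the sources used here. The part of the copies in these low counts was not tested, and the levels and fold changes of these 4 genes are uncertain.

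**Figure D2:**
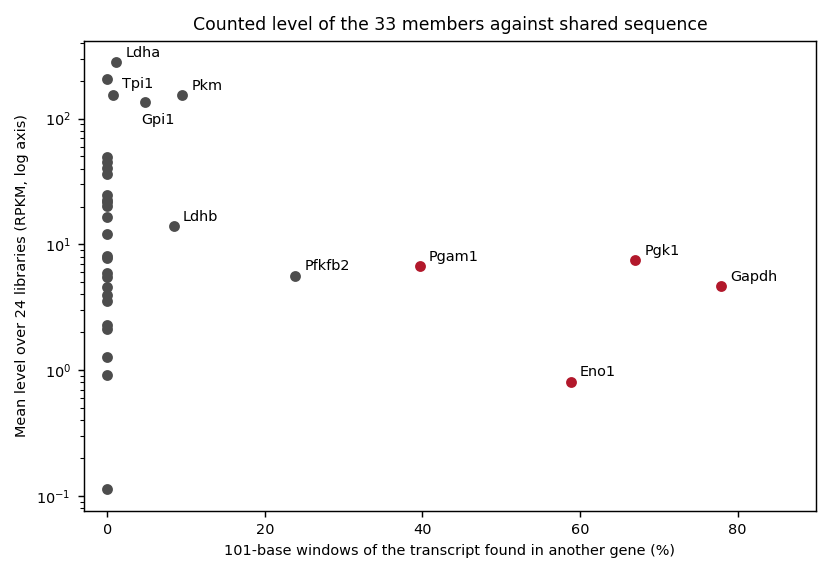
Mean level of each of the 33 members in RPKM (log axis) against the percentage of its read-length windows that are also in another gene's transcript. Red points are the 4 genes above 35%, Gapdh, Pgk1, Pgam1 and Eno1, which lie between 0.810 and 7.46 RPKM, and black points are the others.

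Changes were tested in edgeR (quasi-likelihood, all 24 libraries in 1 fit, Benjamini-Hochberg over the 13520 genes tested), and "passed" means an adjusted p below 0.05. The first question was what the absence of miR-142 goes with in leukemic LSKs, BC CML against CP CML. Of the 32 members, 10 passed (31.2%), where 38.0% of all tested genes did, so the share was near the background and below it. There were 5 higher (20.4% of all tested genes were higher) and 5 lower (17.6%). The 5 higher members were Hk3, Pfkp, Aldoa, Pfkfb3 and Slc16a3 and the 5 lower ones Aldoc, Eno3, Pklr, Pfkfb4 and Bpgm. The abundant members gave 4 of the higher and 0 of the lower calls, and all 5 lower members were scarce. At a limit of 5 RPKM, Eno3 and Bpgm were abundant, which gave 4 higher and 2 lower calls among the abundant members. The median log2 fold change was 0.13 for the members and 0.014 for all genes tested. The groups of 6 libraries did not overlap for 6 members, where this held for 20.7% of all genes tested. Without miR-142 KO library 3, which is in neither group but shares the fit, 12 members passed, with Pfkl and Slc2a1 added, and 5608 of all genes in place of 5137. With only the libraries compared, 8 members were higher and 5 lower, and 5619 of all genes passed. With upper quartile scaling, higher genes made up 42.4% of all calls in place of 53.7%, and the members' calls stayed at 5 higher and 5 lower.

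The same question in normal LSKs, miR-142 KO against WT, gave 20 of 32 members past the threshold (62.5%) against 36.3% of all genes. There were 16 higher (19.9% of all genes) and 4 lower (16.4%, Aldoc, Gapdh, Slc2a3 and Bpgm). The median log2 fold change was 0.23 against 0.0054. Groups did not overlap for 8 members, with 14.5% of all genes as the background. Without miR-142 KO library 3, 18 members passed, 14 higher and 4 lower, and Pgk1 and Slc16a1 no longer did, while 4547 of all genes passed in place of 4907. With only the libraries compared, 11 members were higher and 4 lower, and 3757 of all genes passed. With upper quartile scaling, higher genes made up 42.0% of all calls in place of 54.7%, and 16 members were higher and 6 lower.

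BCR-ABL was compared next. In CP CML against WT LSKs, 22 of 32 members passed (68.8%, against 45.4% of all genes), 16 higher (22.5%) and 6 lower (22.9%, Hk1, Pfkm, Pklr, Ldhb, Pfkfb2 and Slc16a7). The median log2 fold change was 0.29 against -0.020. Groups did not overlap for 19 members, 15 higher and 4 lower, where 21.8% of all genes did not. In BC CML against miR-142 KO LSKs, 19 members passed (59.4%, against 39.6% of all genes), 14 higher (20.3%) and 5 lower (19.3%). Its median log2 fold change was 0.18 against -0.019, and groups did not overlap for 7 members, against 10.6%. The overlap of Hk2, Gpi1, Pfkl, Tpi1, Pkm, Ldha and Slc2a1 rested on miR-142 KO library 3 alone. So did that of Pfkfb2 and Pfkfb4, which were lower in BC CML, and the list may not be complete. The share of all genes without overlap was not counted without that library. Without miR-142 KO library 3, 24 members passed in place of 19, 17 higher and 7 lower. Pfkl, Pgk1, Eno3, Pfkfb3 and Pfkfb4 were added, and the genes that passed over the whole table rose from 5358 to 6471. The 4 comparisons share groups with one another and are not independent.

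The difference between the 2 miR-142 effects, in CML and in normal LSKs, was tested as an interaction. It passed for 2 members (6.25%), where 3.99% of all genes passed. Both, Pklr and Pfkfb3, were lower (2.08% of all genes were lower and 1.91% higher). At an unadjusted p below 0.05 there were 6 members, a count not made for all genes. The summed level of the 33 members was 2831 to 3152 CPM (median 2946) in WT, 3556 to 4312 (4047) in CP CML, 3426 to 4378 (3506) in miR-142 KO and 4013 to 4744 (4516) in BC CML libraries. The WT libraries thus lay below all others in this sum, while the remaining groups overlapped. The highest miR-142 KO sum was that of library 3, and without it that group lay below every BC CML library.

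**Figure D3:**
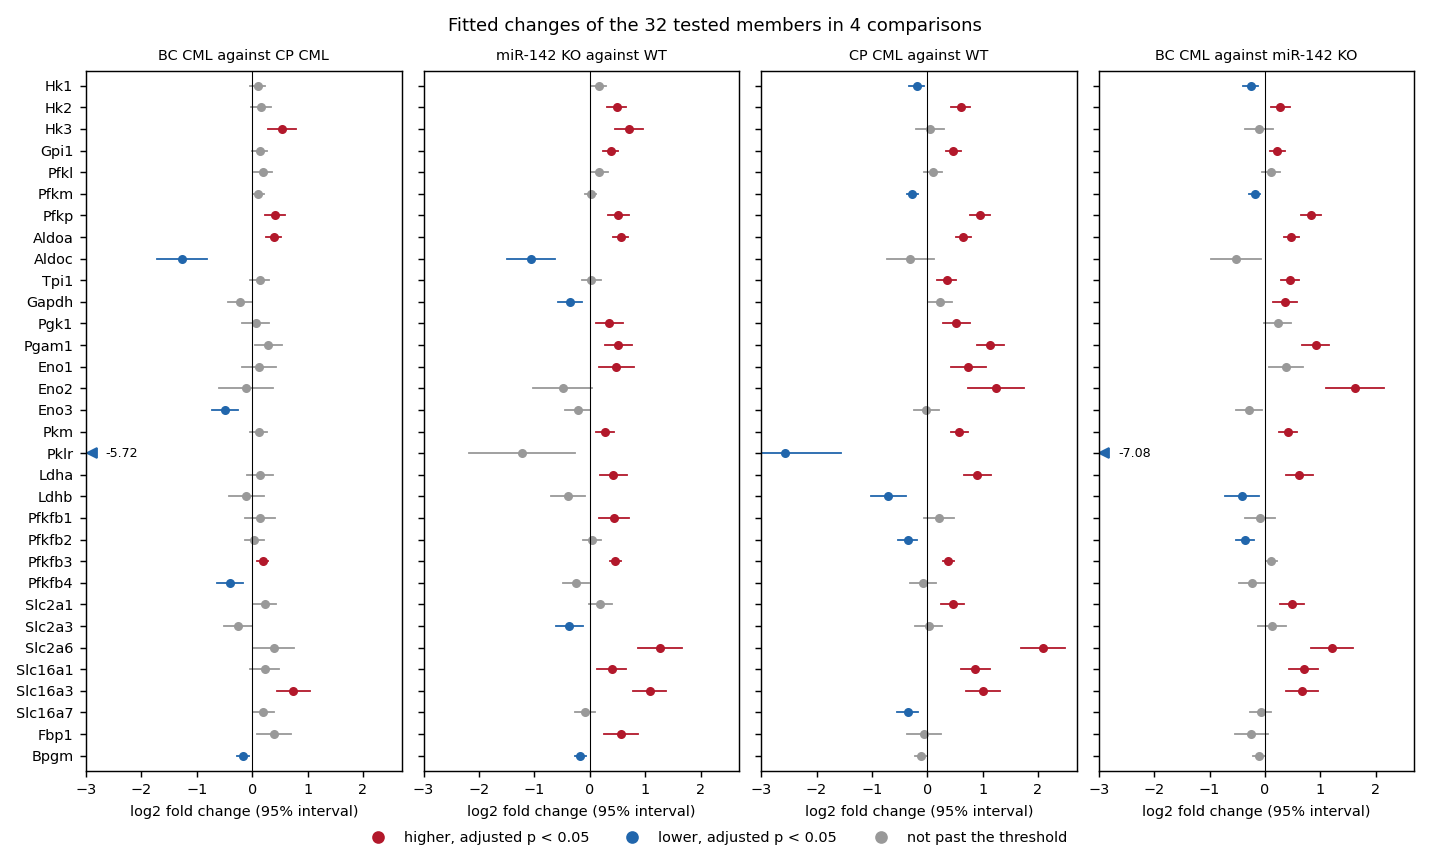
Fitted log2 fold change of each tested member with its 95% interval in 4 comparisons, red where higher and blue where lower at an adjusted p below 0.05, gray otherwise. Most points of CP CML against WT lie right of 0, and Pklr, drawn as an arrow with its value, lies far left in both comparisons with BC CML.

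Hexokinases trap glucose in the cell as its 6-phosphate. Hk1 (chr10:62268855-62379908, minus strand of mm10) is the widely expressed enzyme bound to mitochondria, and its level was 299 to 415 CPM (median 341) in WT, 275 to 338 (309.8) in CP CML, 359.9 to 443 (380.2) in miR-142 KO and 307 to 343 (327) in BC CML. All libraries of both leukemic groups lay below the miR-142 KO ones, and WT overlapped every group. Hk1 was lower in BC CML than in miR-142 KO (log2 fold change -0.26, SE 0.068, adjusted p = 0.00488) and in CP CML than in WT (log2 fold change -0.19, SE 0.068, adjusted p = 0.0258), the latter a call that leaving out any of WT 2, WT 3, CP CML 1, CP CML 5 or CP CML 6 ended (adjusted p 0.00617 to 0.107 over the alternatives). Between genotypes it did not pass (log2 fold change 0.098, SE 0.068, adjusted p = 0.264 in CML, 0.16, SE 0.068, adjusted p = 0.0614 in normal LSKs).

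Hk2 (chr6:82725027-82774454, minus), the inducible isoenzyme of growing cells and muscle, was at 72.4 to 103 CPM (median 81.4) in WT, 109 to 143 (132) in CP CML, 95.5 to 146 (116) in miR-142 KO and 131 to 153 (146) in BC CML. All CP CML libraries lay above WT. It was higher in CP CML than in WT (log2 fold change 0.60, SE 0.091, adjusted p = 2.01e-05), in miR-142 KO than in WT (0.48, SE 0.091, adjusted p = 0.000202) and in BC CML than in miR-142 KO (0.28, SE 0.090, adjusted p = 0.0175). In BC CML against CP CML the change did not pass, with a 95% interval of -0.015 to 0.34 on the log2 scale.

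Hk3 (chr13:55005985-55021385, minus), an isoenzyme of myeloid cells, was at 96.7 to 174 CPM (median 123) in WT, 114 to 158 (126) in CP CML, 137 to 238 (214) in miR-142 KO and 161 to 206 (192) in BC CML. BC CML libraries lay above all CP CML ones, while miR-142 KO, whose lowest library was 3, overlapped WT. Hk3 rose in BC CML against CP CML (log2 fold change 0.54, SE 0.13, adjusted p = 0.00195) and in miR-142 KO against WT (0.70, SE 0.13, adjusted p = 0.000182), and without library 3 the latter was 0.80. The BCR-ABL comparisons did not pass (log2 fold change 0.043, SE 0.13, adjusted p = 0.804 and -0.11, SE 0.13, adjusted p = 0.507). Of 7 neutrophil-primed markers, 4 were higher in BC CML against CP CML and 7 in miR-142 KO against WT. In CP CML against WT 6 were higher, and in BC CML against miR-142 KO 4 were higher and 1 lower, although Hk3 did not pass there. Of all tested genes, 20.4%, 19.9%, 22.5% and 20.3% were higher in these 4 comparisons, in the same order. The part of these markers in the Hk3 result was not tested.

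As shares of hexokinase transcripts per length, Hk1 held 41.3% to 52.0% (median 46.1%) in WT and 32.03% to 35.5% (median 34.2%) in BC CML libraries. Hk2 held 13.6% to 19.6% (median 14.8%) and 18.8% to 22.7% (median 20.4%), and Hk3 32.5% to 44.9% (median 38.1%) and 41.7% to 47.2% (median 46.2%). Per length, Hk1 was thus the main hexokinase transcript in 5 of the 6 WT libraries, and Hk3 in all BC CML ones. This order depends on the length of 7.518 kb in the count table for Hk1, whose longest protein-coding GENCODE transcript has 4278 bases. In CPM, Hk1 lay above Hk3 in every BC CML library, at 307 to 343 against 161 to 206.

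**Figure D4:**
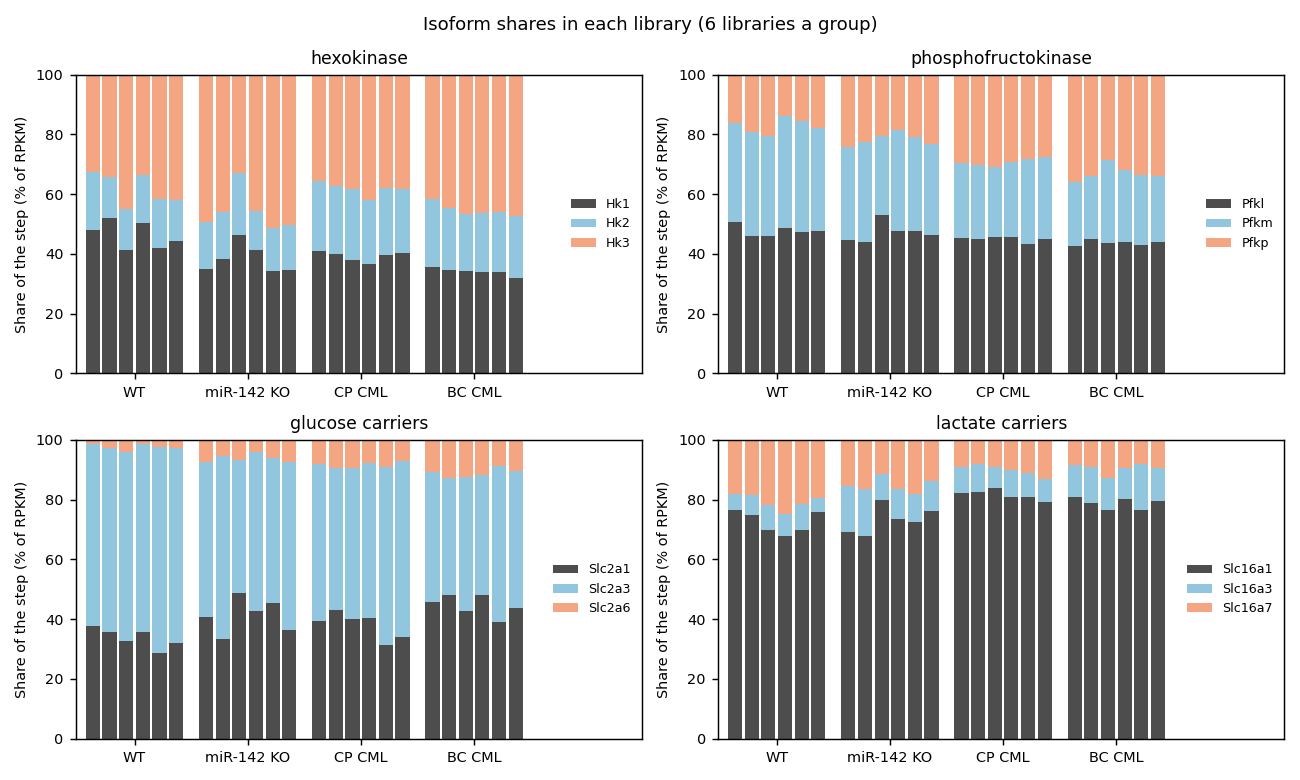
Share of each isoform in the RPKM of its step (bars stacked to 100%), 1 bar a library and 6 a group, for hexokinase, phosphofructokinase, glucose carriers and lactate carriers. Pfkp takes 14.0% to 20.6% of phosphofructokinase in WT and 28.7% to 35.9% in BC CML libraries, and Slc2a6 grows from at most 3.99% to at least 8.71% of the glucose carriers.

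Gpi1 (chr7:34201327-34230336, minus) interconverts glucose and fructose 6-phosphate. It was at 337 to 433 CPM (median 362) in WT, 434 to 582.01 (511) in CP CML, 457 to 511 (478) in miR-142 KO and 500.1 to 607 (554) in BC CML. Each library of the other 3 groups lay above each WT library. Gpi1 was higher in miR-142 KO (log2 fold change 0.38, SE 0.070, adjusted p = 0.00019) and CP CML (0.47, SE 0.070, adjusted p = 1.97e-05) than in WT and higher in BC CML than in miR-142 KO (0.22, SE 0.070, adjusted p = 0.0153), and did not pass between BC CML and CP CML (log2 fold change 0.13, SE 0.070, adjusted p = 0.14).

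Phosphofructokinase commits the sugar to glycolysis. Pfkl (chr10:77986949-78009796, minus), the liver type, was at 126 to 148 CPM (median 131) in WT, 124 to 155 (152) in CP CML, 133 to 204 (142.1) in miR-142 KO and 155 to 179.5 (164) in BC CML and was the 1 tested member that passed in none of the 5 comparisons (log2 fold change 0.20, SE 0.083, adjusted p = 0.0653 in BC CML against CP CML, although BC CML libraries lay above all CP CML ones). Without miR-142 KO library 3, the highest of its group, that comparison passed (0.18, adjusted p = 0.0150).

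Pfkm (chr15:98092589-98132447, plus), the muscle type, was at 74.9 to 90.6 CPM (median 78.2) in WT, 63.7 to 68.7 (66.9) in CP CML, 75.9 to 88.9 (81.9) in miR-142 KO and 65.6 to 80.1 (70.8) in BC CML. CP CML libraries lay below all WT ones. It was lower in CP CML than in WT (log2 fold change -0.28, SE 0.051, adjusted p = 0.000163) and in BC CML than in miR-142 KO (-0.18, SE 0.051, adjusted p = 0.00642), and did not pass between the miR-142 genotypes (log2 fold change 0.11, SE 0.051, adjusted p = 0.0962 in CML and 0.017, SE 0.051, adjusted p = 0.822 in normal LSKs).

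Pfkp (chr13:6579874-6648771, minus), the platelet type, carries a 5p match. It was at 51.7 to 70.6 CPM (median 60.4) in WT, 97.5 to 129.8 (122) in CP CML, 68.8 to 98.4 (88.4) in miR-142 KO and 126 to 168 (158) in BC CML. CP CML lay above WT and BC CML above miR-142 KO with no overlap, and BC CML overlapped CP CML at its lower end. It rose in all 4 comparisons, in BC CML against CP CML (log2 fold change 0.40, SE 0.092, adjusted p = 0.00134), miR-142 KO against WT (0.52, SE 0.093, adjusted p = 0.000133), CP CML against WT (0.95, SE 0.093, adjusted p = 8.44e-08) and BC CML against miR-142 KO (0.84, SE 0.093, adjusted p = 4.84e-07). Its share of the phosphofructokinase transcripts was 14.0% to 20.6% (median 17.2%) in WT, 27.7% to 30.9% (median 29.4%) in CP CML, 18.5% to 24.1% (median 21.8%) in miR-142 KO and 28.7% to 35.9% (median 33.7%) in BC CML libraries, while that of Pfkm went from 32.9% to 37.3% (median 34.6%) in WT to 21.0% to 27.6% (median 22.9%) in BC CML.

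Aldolases split the doubly phosphorylated sugar. Aldoa (chr7:126795234-126800447, minus), the muscle and red cell type, was at 229 to 261 CPM (median 246) in WT, 326 to 435 (398) in CP CML, 333 to 400.3 (358) in miR-142 KO and 429.7 to 559.6 (510.3) in BC CML. Every miR-142 KO and CP CML library lay above WT, and every BC CML library above miR-142 KO. Aldoa rose in BC CML against CP CML (log2 fold change 0.39, SE 0.069, adjusted p = 0.000128), miR-142 KO against WT (0.56, SE 0.069, adjusted p = 1.27e-06), CP CML against WT (0.65, SE 0.069, adjusted p = 2.34e-07) and BC CML against miR-142 KO (0.48, SE 0.069, adjusted p = 1.79e-05).

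Aldoc (chr11:78323073-78327778, plus), the brain type, moved the other way where miR-142 was absent. It was at 7.62 to 12.7 CPM (median 8.42) in WT, 4.38 to 9.99 (8.13) in CP CML, 2.52 to 6.72 (4.55) in miR-142 KO and 2.16 to 4.25 (2.89) in BC CML. Each miR-142 KO library lay below each WT library, and each BC CML library below each CP CML library. It fell in BC CML against CP CML (log2 fold change -1.27, SE 0.23, adjusted p = 0.000131) and in miR-142 KO against WT (-1.06, SE 0.22, adjusted p = 0.000684). Neither BCR-ABL comparison passed (log2 fold change -0.31, SE 0.22, adjusted p = 0.263 and -0.52, SE 0.23, adjusted p = 0.0742). Aldoc was a small part of the aldolase transcripts per length, 2.04% to 3.004% (median 2.13%) in WT and 0.244% to 0.592% (median 0.357%) in BC CML.

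Tpi1 (chr6:124810592-124814296, minus) interconverts the triose phosphates. It was at 197 to 231 CPM (median 205) in WT, 235 to 289 (273) in CP CML, 190.4 to 292 (197) in miR-142 KO and 248 to 316 (293) in BC CML, with miR-142 KO library 3 the highest of its group by a wide gap. Tpi1 was higher in CP CML than in WT, with no overlap (log2 fold change 0.35, SE 0.087, adjusted p = 0.00264), and in BC CML than in miR-142 KO (0.45, SE 0.087, adjusted p = 0.000399). Neither comparison of genotypes passed (log2 fold change 0.13, SE 0.087, adjusted p = 0.237 and 0.026, SE 0.087, adjusted p = 0.839). Without library 3, the log2 fold change of Tpi1 in BC CML against miR-142 KO was 0.55.

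The next 4 enzymes are those with copies, and their counts were low. Gapdh (chr6:125161852-125166467, minus), which makes the first NADH of the pathway, was at 6.20 to 7.49 CPM (median 7.09) in WT, 7.14 to 9.21 (8.14) in CP CML, 4.51 to 6.15 (5.53) in miR-142 KO and 5.68 to 8.77 (7.20) in BC CML. Its level was below WT in miR-142 KO, with no overlap (log2 fold change -0.35, SE 0.11, adjusted p = 0.0135), and higher in BC CML than in miR-142 KO (0.37, SE 0.11, adjusted p = 0.0106). In BC CML against CP CML it did not pass (log2 fold change -0.22, SE 0.11, adjusted p = 0.112).

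Pgk1 (chrX:106187100-106203699, plus), which makes the first ATP, was at 8.57 to 12.4 CPM (median 10.4) in WT, 12.7 to 17.1 (14.8) in CP CML, 11.2 to 19.1 (12.4) in miR-142 KO and 12.0 to 18.1 (15.4) in BC CML. It was higher in CP CML than in WT, with no overlap (log2 fold change 0.52, SE 0.12, adjusted p = 0.00151). Its rise in miR-142 KO against WT (log2 fold change 0.36, SE 0.12, adjusted p = 0.0268) was lost without library 3 (0.23, adjusted p = 0.0875) and without WT 4 (range over all alternatives 0.0145 to 0.0875).

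Pgam1 (chr19:41911871-41918665, plus), the phosphoglycerate mutase of most tissues, was at 5.51 to 9.21 CPM (median 6.53) in WT, 10.6 to 19.1 (14.4) in CP CML, 8.53 to 10.7 (9.80) in miR-142 KO and 17.0 to 20.3 (17.9) in BC CML. CP CML lay above WT and BC CML above miR-142 KO with no overlap. Pgam1 rose in CP CML against WT (log2 fold change 1.14, SE 0.13, adjusted p = 3.79e-07), in BC CML against miR-142 KO (0.91, SE 0.12, adjusted p = 7.92e-06) and in miR-142 KO against WT (0.51, SE 0.13, adjusted p = 0.00254), and did not pass in BC CML against CP CML (log2 fold change 0.29, SE 0.12, adjusted p = 0.0611).

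Eno1 (chr4:150237197-150248873, plus), the common enolase, was at 1.05 to 2.24 CPM (median 1.91) in WT, 2.36 to 3.52 (2.97) in CP CML, 2.25 to 2.92 (2.50) in miR-142 KO and 2.33 to 3.65 (3.43) in BC CML. Both miR-142 KO and CP CML lay above WT without overlap. Eno1 rose in CP CML (log2 fold change 0.74, SE 0.16, adjusted p = 0.000757) and in miR-142 KO (0.48, SE 0.16, adjusted p = 0.0222) against WT, the latter a call lost without WT 5 or with only the libraries compared (adjusted p 0.0150 to 0.0687 over the alternatives). Its near copy Eno1b, counted apart, was at 0.461 to 1.05 CPM (median 0.860) in WT and 0.801 to 1.957 CPM (median 1.37) in BC CML libraries and rose in BC CML against CP CML (log2 fold change 0.68, SE 0.25, adjusted p = 0.0371).

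Of the tissue-restricted enolases, Eno2 (chr6:124760053-124769673, minus), known from neurons, was at 1.02 to 2.07 CPM (median 1.66) in WT, 2.97 to 5.78 (3.55) in CP CML, 0.530 to 1.72 (1.32) in miR-142 KO and 1.99 to 4.93 (3.59) in BC CML. Both leukemic groups lay above their normal counterparts with no overlap. Eno2 rose in CP CML against WT (log2 fold change 1.25, SE 0.26, adjusted p = 0.000501) and in BC CML against miR-142 KO (1.62, SE 0.27, adjusted p = 7.48e-05), and did not pass between genotypes (log2 fold change -0.11, SE 0.25, adjusted p = 0.748 and -0.49, SE 0.27, adjusted p = 0.159). Eno3 (chr11:70657176-70662513, plus), known from muscle, was at 8.58 to 11.7 CPM (median 9.30) in WT, 8.34 to 11.3 (9.74) in CP CML, 6.90 to 9.26 (8.60) in miR-142 KO and 4.81 to 8.76 (7.07) in BC CML and fell in BC CML against CP CML (log2 fold change -0.49, SE 0.12, adjusted p = 0.00188), with overlapping groups. Eno3 appeared as the main enolase transcript, 82.6% to 86.6% (median 84.5%) of the total per length in WT and 53.0% to 71.8% (median 66.3%) in BC CML, but this share rests on the counted part of Eno1.

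Pyruvate kinase closes the pathway with a second ATP-forming step. Pkm (chr9:59656368-59679375, plus), which gives the M1 and M2 forms by splicing that gene counts do not separate, carries a 5p match and was at 379 to 429 CPM (median 399.9) in WT, 536 to 656 (607) in CP CML, 436 to 654 (456) in miR-142 KO and 577 to 684 (663) in BC CML. Each miR-142 KO and CP CML library lay above WT. Pkm rose in CP CML against WT (log2 fold change 0.58, SE 0.080, adjusted p = 7.49e-06), BC CML against miR-142 KO (0.42, SE 0.080, adjusted p = 0.000369, and 0.51 without library 3) and miR-142 KO against WT (0.28, SE 0.080, adjusted p = 0.00923, and 0.18 without library 3). It did not pass in BC CML against CP CML (log2 fold change 0.12, SE 0.080, adjusted p = 0.254).

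Pklr (chr3:89136142-89146594, plus), the liver and red cell pyruvate kinase, showed the widest change of all members. It had 104 to 304 counts in the WT libraries, 14 to 77 in CP CML, 4 to 179 in miR-142 KO, and in BC CML 0 counts in 4 libraries, 1 in another and 2 in another. Counting error alone lets a count of 0 stand for up to 3 counts. In CPM it was at 4.48 to 12.9 CPM (median 8.51) in WT, 0.647 to 3.37 (1.04) in CP CML, 0.177 to 7.91 (3.77) in miR-142 KO and 0 to 0.101 (0) in BC CML. No BC CML library reached the lowest library of any other group. The summed BC CML counts were 3 against 191 in CP CML, a ratio of 0.0155 (95% exact counting interval 0.00317 to 0.0460), and against 521 in miR-142 KO a ratio of 0.00598 (0.00123 to 0.0176).

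Pklr fell in BC CML against CP CML (log2 fold change -5.72, SE 0.95, adjusted p = 5.37e-05), in CP CML against WT (-2.58, SE 0.52, adjusted p = 0.000412) and in BC CML against miR-142 KO (-7.08, SE 0.89, adjusted p = 3.17e-06), and did not pass in miR-142 KO against WT (log2 fold change -1.22, SE 0.49, adjusted p = 0.0521). With counts this low the fitted values against BC CML depend on the prior count. With only the libraries compared, Pklr failed the count filter in BC CML against miR-142 KO and was not tested. The fit of all 24 libraries admitted it through counts in other groups. The difference between the miR-142 effects was -4.50, SE 1.16, adjusted p = 0.028, and the call was lost without BC CML 1 (adjusted p 0.000445 to 0.0557 over the alternatives). Pklr held 1.32% to 4.08% (median 2.52%) of the pyruvate kinase transcripts per length in WT and at most 0.0218% in BC CML.

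Some erythroid markers were lower as well. Of 9 tested markers (Klf1, Epor and others), 3 were lower in BC CML against CP CML, 2 in miR-142 KO against WT, 7 in CP CML against WT and 6 in BC CML against miR-142 KO, and none was higher. This was 33.3%, 22.2%, 77.8% and 66.7% of the list, where 38.0%, 36.3%, 45.4% and 39.6% of all genes passed. Lower genes alone made up 17.6%, 16.4%, 22.9% and 19.3% of all genes. Their summed level was 607 to 743 CPM in WT, 431 to 577 in CP CML, 397 to 567 in miR-142 KO and 313 to 467 in BC CML libraries, and none of the 10 in the table was at 0 in all 6 libraries of a group. Their part in the fall of Pklr was not tested.

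**Figure D5:**
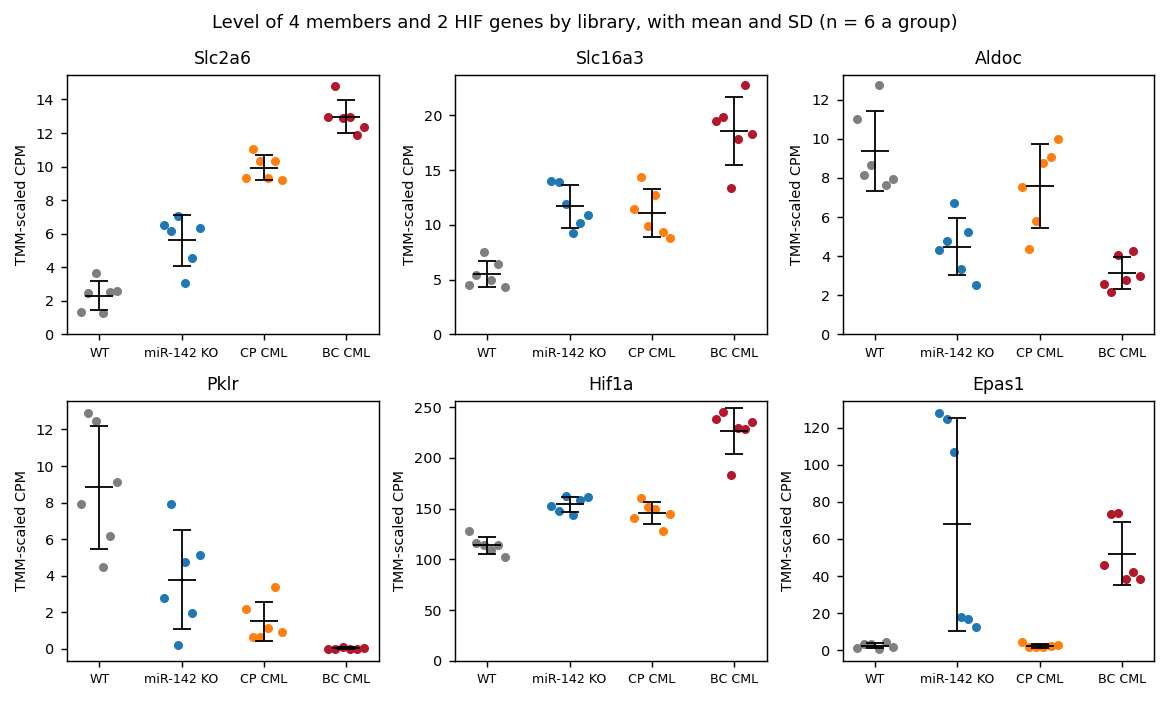
TMM-scaled CPM of Slc2a6, Slc16a3, Aldoc, Pklr, Hif1a and Epas1 by group, 1 point a library, with the mean (bar) and SD (whiskers, n = 6). Slc2a6 and Slc16a3 are lowest in WT and highest in BC CML, Aldoc is lower in the 2 groups without miR-142, Pklr lies at or near 0 in BC CML, and Epas1 is high only in the 2 groups without miR-142, with 3 miR-142 KO libraries far above the other 3.

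Lactate dehydrogenase reduces pyruvate and regenerates NAD+. Ldha (chr7:46845804-46855627, plus), whose upstream promoter window holds 2 CACGTG and 5 ACGTG matches counted over both strands while its other window (chr7:46846832-46847131) holds 0 of either, was at 313 to 388 CPM (median 346) in WT, 539 to 723 (677) in CP CML, 385 to 744 (410.2) in miR-142 KO and 607 to 755 (740.0) in BC CML. CP CML lay above WT with no overlap, and miR-142 KO library 3 lay far above the other 5 of its group. Ldha rose in CP CML against WT (log2 fold change 0.90, SE 0.13, adjusted p = 7.39e-06), in BC CML against miR-142 KO (0.62, SE 0.12, adjusted p = 0.00055) and in miR-142 KO against WT (0.42, SE 0.12, adjusted p = 0.0107), where the value without library 3 was 0.24 (adjusted p = 0.0163) and with only the libraries compared the call was lost (0.00315 to 0.0502 over the alternatives). In BC CML against CP CML it did not pass (log2 fold change 0.14, SE 0.12, adjusted p = 0.389). Without library 3, the log2 fold change of Ldha in BC CML against miR-142 KO was 0.80.

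Ldhb (chr6:142490249-142507957, minus), the heart type that favours the reverse reaction, went the other way. It was at 17.5 to 29.8 CPM (median 25.7) in WT, 12.9 to 16.3 (15.2) in CP CML, 12.8 to 24.4 (18.1) in miR-142 KO and 9.70 to 18.4 (13.5) in BC CML, and each CP CML library lay below WT. It fell in CP CML against WT (log2 fold change -0.70, SE 0.16, adjusted p = 0.00113) and, in a call lost without any of 8 libraries, in BC CML against miR-142 KO (-0.41, SE 0.16, adjusted p = 0.0425, 0.00974 to 0.114 over the alternatives). Genotypes did not differ past the threshold (log2 fold change -0.11, SE 0.16, adjusted p = 0.633 and -0.39, SE 0.16, adjusted p = 0.0541). Ldhb held 6.27% to 11.8% (median 9.64%) of the lactate dehydrogenase transcripts per length in WT and 1.88% to 4.18% (median 2.74%) in BC CML.

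The Pfkfb enzymes set the level of fructose 2,6-bisphosphate, the activator of phosphofructokinase. Pfkfb3 (chr2:11471431-11553929, minus), the isoform with the strongest kinase side, was at 83.0 to 95.4 CPM (median 87.5) in WT, 106 to 123 (115) in CP CML, 109 to 133 (123) in miR-142 KO and 122 to 143 (131) in BC CML. Both miR-142 KO and CP CML lay above WT with no overlap. It rose in miR-142 KO (log2 fold change 0.46, SE 0.051, adjusted p = 2.68e-07) and CP CML (0.38, SE 0.051, adjusted p = 4.79e-06) against WT and in BC CML against CP CML (0.19, SE 0.050, adjusted p = 0.00414). The miR-142 effect was smaller in CML, with a difference of -0.27, SE 0.071, adjusted p = 0.035, and this call was lost without WT 1 (0.00609 to 0.0605 over the alternatives).

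Pfkfb4 (chr9:108991902-109032225, plus) was at 13.3 to 19.1 CPM (median 16.7) in WT, 13.5 to 18.2 (15.8) in CP CML, 9.07 to 15.997 (14.1) in miR-142 KO and 10.04 to 13.4 (11.6) in BC CML and fell in BC CML against CP CML, with no overlap (log2 fold change -0.40, SE 0.12, adjusted p = 0.0103). Pfkfb2 (chr1:130670202-130729253, minus), the heart type, was at 59.2 to 75.9 CPM (median 69.0) in WT, 48.5 to 58.1 (52.5) in CP CML, 49.9 to 82.1 (70.9) in miR-142 KO and 52.0 to 58.2 (53.9) in BC CML and fell with BCR-ABL in CP CML against WT, with no overlap (log2 fold change -0.36, SE 0.085, adjusted p = 0.00166), and in BC CML against miR-142 KO (-0.36, SE 0.085, adjusted p = 0.00222). Pfkfb1 (chrX:150589921-150643878, plus), the liver type, was at 3.73 to 6.56 CPM (median 5.07) in WT, 4.49 to 6.61 (6.12) in CP CML, 5.75 to 7.999 (7.08) in miR-142 KO and 5.35 to 7.34 (6.51) in BC CML and rose in miR-142 KO against WT (log2 fold change 0.44, SE 0.14, adjusted p = 0.0138), a call lost with only the libraries compared (0.00449 to 0.0519). Pfkfb3 held 49.0% to 56.4% (median 53.6%) of the 4 transcripts per length in WT and 63.7% to 68.7% (median 65.8%) in BC CML.

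Glucose enters through facilitative carriers. Slc2a1 (chr4:119108745-119137329, plus), known as GLUT1, was at 21.8 to 28.0 CPM (median 24.04) in WT, 26.4 to 37.6 (33.7) in CP CML, 23.0 to 39.2 (26.9) in miR-142 KO and 33.1 to 42.1 (40.0) in BC CML. It rose in CP CML against WT (log2 fold change 0.46, SE 0.11, adjusted p = 0.00156) and in BC CML against miR-142 KO (0.49, SE 0.11, adjusted p = 0.00116), with overlapping groups, and did not pass between genotypes (log2 fold change 0.23, SE 0.11, adjusted p = 0.0972 and 0.19, SE 0.11, adjusted p = 0.167). Without miR-142 KO library 3, BC CML against CP CML passed (0.21, adjusted p = 0.0420).

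Slc2a3 (chr6:122727809-122742745, minus), known as GLUT3, was at 109 to 132 CPM (median 117) in WT, 104 to 146 (117) in CP CML, 70.6 to 132 (89.4) in miR-142 KO and 84.7 to 136 (93.3) in BC CML. Its groups overlapped throughout. In miR-142 KO it was lower (log2 fold change -0.37, SE 0.13, adjusted p = 0.0264 against WT), a call lost without WT 5, miR-142 KO 4 or miR-142 KO 5 (0.00116 to 0.0733). In BC CML against CP CML it did not pass (log2 fold change -0.26, SE 0.13, adjusted p = 0.11).

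Slc2a6 (chr2:27021365-27027998, minus), known as GLUT6, was the carrier that moved most. It was at 1.29 to 3.64 CPM (median 2.52) in WT, 9.20 to 11.1 (9.84) in CP CML, 3.06 to 7.08 (6.23) in miR-142 KO and 11.9 to 14.8 (12.9) in BC CML. Both leukemic groups lay above both normal groups, and BC CML lay above CP CML. Slc2a6 rose in CP CML against WT (log2 fold change 2.10, SE 0.20, adjusted p = 7.23e-08), miR-142 KO against WT (1.27, SE 0.20, adjusted p = 3.11e-05) and BC CML against miR-142 KO (1.21, SE 0.19, adjusted p = 5.49e-05). In BC CML against CP CML it did not pass (log2 fold change 0.38, SE 0.19, adjusted p = 0.109), nor did the difference between the miR-142 effects (-0.89, SE 0.27, adjusted p = 0.0676). Its share of the 3 glucose carriers per length was 1.31% to 3.995% (median 2.61%) in WT, 7.07% to 9.57% (median 8.72%) in CP CML, 4.20% to 7.52% (median 6.30%) in miR-142 KO and 8.71% to 12.8% (median 11.3%) in BC CML, while Slc2a3 stayed the largest in WT with 61.1% to 68.7% (median 63.2%).

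Lactate leaves through monocarboxylate carriers. Slc16a1 (chr3:104638664-104658462, plus), known as MCT1, was at 80.1 to 124 CPM (median 104) in WT, 159 to 213 (189.9) in CP CML, 102 to 192 (127) in miR-142 KO and 163 to 254 (226) in BC CML. CP CML lay above WT with no overlap. Slc16a1 rose in CP CML against WT (log2 fold change 0.87, SE 0.14, adjusted p = 3.16e-05), in BC CML against miR-142 KO (0.70, SE 0.14, adjusted p = 0.000421) and in miR-142 KO against WT (0.39, SE 0.14, adjusted p = 0.0261), the last lost without library 3 (0.27, adjusted p = 0.0881), without WT 4 or WT 5, and with only the libraries compared (0.00938 to 0.0881).

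Slc16a3 (chr11:120948484-120959000, plus), known as MCT4, the exporter of highly glycolytic cells, was at 4.37 to 7.49 CPM (median 5.19) in WT, 8.81 to 14.4 (10.7) in CP CML, 9.31 to 14.0 (11.4) in miR-142 KO and 13.4 to 22.8 (18.9) in BC CML. Each miR-142 KO and each CP CML library lay above WT, and BC CML overlapped both. It rose in all 4 comparisons, in BC CML against CP CML (log2 fold change 0.74, SE 0.15, adjusted p = 0.000401), miR-142 KO against WT (1.08, SE 0.15, adjusted p = 8.06e-06), CP CML against WT (1.01, SE 0.15, adjusted p = 2.24e-05) and BC CML against miR-142 KO (0.67, SE 0.15, adjusted p = 0.00125). Its level per length stayed below that of Slc16a1 in every library.

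Slc16a7 (chr10:125227485-125328535, minus), known as MCT2 and the member with matches to both miR-142 seeds, was at 14.7 to 19.3 CPM (median 16.4) in WT, 11.9 to 15.2 (12.8) in CP CML, 13.8 to 20.2 (15.3) in miR-142 KO and 12.1 to 16.1 (15.6) in BC CML. It was lower in CP CML than in WT (log2 fold change -0.36, SE 0.095, adjusted p = 0.00403), and neither comparison of genotypes passed (log2 fold change 0.20, SE 0.095, adjusted p = 0.103, with a 95% interval of 0.012 to 0.39, and -0.082, SE 0.094, adjusted p = 0.519, -0.27 to 0.10). Slc16a1 held 67.9% to 76.4% (median 72.3%) of the 3 lactate carriers per length in WT and 79.4% to 83.8% (median 81.6%) in CP CML, and Slc16a7 18.2% to 24.9% (median 20.5%) and 7.95% to 13.1% (median 9.54%).

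Of the side enzymes, Fbp1 (chr13:62864753-62888282, minus) reverses the phosphofructokinase step and is known from liver and myeloid cells. It was at 6.85 to 13.2 CPM (median 9.49) in WT, 6.97 to 10.8 (10.3) in CP CML, 11.7 to 18.2 (14.6) in miR-142 KO and 9.75 to 16.3 (11.7) in BC CML and rose in miR-142 KO against WT (log2 fold change 0.56, SE 0.16, adjusted p = 0.00662), while BC CML against CP CML did not pass (0.39, SE 0.16, adjusted p = 0.0546). The neutrophil-primed markers given beside Hk3 moved in these comparisons too. Most also rose in CP CML against WT and in BC CML against miR-142 KO, where Fbp1 did not pass (log2 fold change -0.066 and -0.24). Their part was not tested. Bpgm (chr6:34476356-34505610, plus) makes the 2,3-bisphosphoglycerate of red cells. It was at 26.7 to 29.7 CPM (median 28.9) in WT, 24.4 to 28.8 (26.5) in CP CML, 23.8 to 26.9 (25.5) in miR-142 KO and 21.8 to 25.4 (23.1) in BC CML and fell in miR-142 KO against WT (log2 fold change -0.17, SE 0.054, adjusted p = 0.0171), a call lost without miR-142 KO 6 (0.00444 to 0.0556), and in BC CML against CP CML (-0.16, SE 0.054, adjusted p = 0.021). Of the 9 erythroid markers given beside Pklr, 2 and 3 were lower in these comparisons. More were lower, 7 and 6, in CP CML against WT and in BC CML against miR-142 KO, where Bpgm did not pass (log2 fold change -0.12 and -0.11). Their part was not tested.

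Genes around the pathway were read from lists chosen by function, in CML (BC CML against CP CML) and in normal LSKs (miR-142 KO against WT). Over all genes tested, 20.4% were higher and 17.6% lower in CML (38.0% together), and 19.9% and 16.4% in normal LSKs (36.3%). Of 11 tested pentose phosphate genes, 4 were higher and 0 lower in BC CML against CP CML, and 7 higher and 1 lower in miR-142 KO against WT, with median log2 fold changes of 0.11 and 0.25. This was 36.4% of the list in CML and 72.7% in normal LSKs, against 38.0% and 36.3% of all genes. H6pd, the glucose 6-phosphate dehydrogenase of the endoplasmic reticulum, was at 69.1 to 84.97 CPM (median 77.1) in WT, 85.8 to 113 (101.1) in CP CML, 113 to 125 (119) in miR-142 KO and 118 to 135 (129.7) in BC CML. It rose in both (log2 fold change 0.36, SE 0.059, adjusted p = 4.76e-05 and 0.63, SE 0.059, adjusted p = 2.63e-08). Pgd, the third enzyme of the oxidative arm, rose too (log2 fold change 0.45, SE 0.089, adjusted p = 0.000346 and 0.53, SE 0.090, adjusted p = 6.77e-05), as did Taldo1, transaldolase (log2 fold change 0.32, SE 0.059, adjusted p = 0.000212 and 0.42, SE 0.059, adjusted p = 8.23e-06). Tkt, transketolase, rose in normal LSKs (log2 fold change 0.30, SE 0.062, adjusted p = 0.000629) and did not pass in CML (0.084, SE 0.062, adjusted p = 0.293).

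Of 17 tested glycogen genes, 6 were higher and 2 lower in CML, and 8 higher and 2 lower in normal LSKs, with median log2 fold changes of 0.14 and 0.19. This was 47.1% of the list in CML and 58.8% in normal LSKs, against 38.0% and 36.3% of all genes. Gys1, glycogen synthase, rose (log2 fold change 0.36, SE 0.085, adjusted p = 0.00179 in CML, 0.56, SE 0.086, adjusted p = 1.93e-05 in normal LSKs), as did Pgm2 (log2 fold change 0.28, SE 0.055, adjusted p = 0.000356 and 0.41, SE 0.055, adjusted p = 3.24e-06) and the phosphorylase kinase subunit gene Phka1 (log2 fold change 0.30, SE 0.060, adjusted p = 0.000421 and 0.40, SE 0.060, adjusted p = 1.68e-05). Gbe1, the branching enzyme, fell in both (log2 fold change -0.37, SE 0.056, adjusted p = 1.95e-05 and -0.28, SE 0.056, adjusted p = 0.000392).

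Of 9 tested genes for other isoforms and side branches, 3 were higher and 1 lower in CML and 4 higher and 0 lower in normal LSKs, with median log2 fold changes of 0.12 and 0.27. This was 44.4% of the list in CML and 44.4% in normal LSKs, against 38.0% and 36.3% of all genes. Adpgk, an ADP-dependent glucokinase, rose in both (log2 fold change 0.26, SE 0.069, adjusted p = 0.00495 and 0.48, SE 0.069, adjusted p = 8.56e-06), as did Gpd1l (log2 fold change 0.31, SE 0.062, adjusted p = 0.000381 and 0.39, SE 0.062, adjusted p = 3.18e-05) and Pgp (log2 fold change 0.27, SE 0.10, adjusted p = 0.0481 and 0.27, SE 0.11, adjusted p = 0.0443). Tigar, a phosphatase of fructose 2,6-bisphosphate, rose in miR-142 KO against WT (log2 fold change 0.52, SE 0.15, adjusted p = 0.00803) and in CP CML against WT (1.30, SE 0.15, adjusted p = 5.15e-07).

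Of 18 other tested sugar and monocarboxylate carriers and their partners, 6 were higher and 4 lower in CML and 6 higher and 3 lower in normal LSKs, with median log2 fold changes of -0.074 and -0.013. This was 10 of 18 genes (55.6%) in CML and 9 of 18 in normal LSKs, against 38.0% and 36.3% of all genes. Bsg, the chaperone that brings Slc16a1 and Slc16a3 to the membrane, was at 178 to 215 CPM (median 199) in WT, 182 to 229 (219.8) in CP CML, 264 to 315 (272) in miR-142 KO and 302 to 327 (316) in BC CML. Each library without miR-142 lay above each library with it. It rose in BC CML against CP CML (log2 fold change 0.58, SE 0.059, adjusted p = 6.69e-08) and in miR-142 KO against WT (0.49, SE 0.058, adjusted p = 7.57e-07). Slc16a10 rose in both (log2 fold change 0.53, SE 0.085, adjusted p = 3.40e-05 and 0.53, SE 0.085, adjusted p = 3.20e-05), Slc16a11 in CML (log2 fold change 1.03, SE 0.15, adjusted p = 1.61e-05) and Slc16a6 in normal LSKs (log2 fold change 0.32, SE 0.058, adjusted p = 0.000144).

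Of 15 tested genes for the entry of pyruvate into mitochondria, 3 were higher and 3 lower in CML and 3 higher and 2 lower in normal LSKs, with median log2 fold changes of 0.13 and 0.091. This was 40.0% of the list in CML and 33.3% in normal LSKs, against 38.0% and 36.3% of all genes. Pcx, pyruvate carboxylase, was at 5.13 to 7.71 CPM (median 5.89) in WT, 3.43 to 5.33 (4.29) in CP CML, 7.47 to 11.1 (9.48) in miR-142 KO and 9.58 to 21.0 (11.6) in BC CML. It rose in CML (log2 fold change 1.69, SE 0.19, adjusted p = 3.19e-07) and in normal LSKs (0.58, SE 0.18, adjusted p = 0.0155), and the log2 fold changes differed by 1.10, SE 0.26, adjusted p = 0.0184. Among the kinases that shut pyruvate dehydrogenase, Pdk1 fell in both (log2 fold change -0.28, SE 0.055, adjusted p = 0.000304 and -0.18, SE 0.055, adjusted p = 0.0126) and Pdk3 rose in both (log2 fold change 0.14, SE 0.049, adjusted p = 0.0219 and 0.26, SE 0.049, adjusted p = 0.000182). The phosphatase gene Pdp2 fell in normal LSKs (log2 fold change -0.33, SE 0.073, adjusted p = 0.0012).

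Of 21 tested HIF and MYC genes, 7 were higher and 4 lower in CML and 6 higher and 5 lower in normal LSKs, with median log2 fold changes of 0.097 and 0.067. This was 52.4% of the list in CML and 52.4% in normal LSKs, against 38.0% and 36.3% of all genes. Hif1a, the inducible subunit of HIF-1, was at 103 to 128 CPM (median 114) in WT, 128 to 160.0 (147) in CP CML, 143 to 162 (155) in miR-142 KO and 183 to 245 (232) in BC CML. All BC CML libraries lay above all others. It rose in BC CML against CP CML (log2 fold change 0.64, SE 0.064, adjusted p = 6.32e-08), miR-142 KO against WT (0.44, SE 0.064, adjusted p = 1.11e-05), CP CML against WT (0.36, SE 0.064, adjusted p = 0.000119) and BC CML against miR-142 KO (0.55, SE 0.064, adjusted p = 8.75e-07). Epas1, the HIF-2 subunit, was at 0.689 to 4.27 CPM (median 2.44) in WT, 1.52 to 4.37 (2.07) in CP CML, 12.7 to 128 (62.3) in miR-142 KO and 38.1 to 74.1 (44.1) in BC CML. It rose in BC CML against CP CML (log2 fold change 4.48, SE 0.58, adjusted p = 2.67e-06) and in miR-142 KO against WT (4.80, SE 0.58, adjusted p = 9.54e-07). Egln3, a prolyl hydroxylase that marks HIF for destruction and is itself a HIF target, rose as well (log2 fold change 0.50, SE 0.090, adjusted p = 0.000146 and 1.06, SE 0.092, adjusted p = 6.63e-09), and Hif3a, a HIF inhibitor, fell (log2 fold change -1.86, SE 0.22, adjusted p = 7.89e-07 and -0.998, SE 0.21, adjusted p = 0.000764). RNA does not measure the HIF proteins, which are set by their stability.

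Of 20 tested HIF targets outside glycolysis, 5 were higher and 1 lower in CML and 5 higher and 0 lower in normal LSKs, with median log2 fold changes of 0.16 and 0.079. This was 30.0% of the list in CML and 25.0% in normal LSKs, against 38.0% and 36.3% of all genes. Ero1l, an oxidase of protein folding, rose in both (log2 fold change 0.65, SE 0.11, adjusted p = 0.000116 and 0.56, SE 0.12, adjusted p = 0.00063), as did Car9, a carbonic anhydrase (log2 fold change 0.43, SE 0.088, adjusted p = 0.000452 and 0.31, SE 0.087, adjusted p = 0.00812), and Stc2 (log2 fold change 2.73, SE 0.60, adjusted p = 0.001 and 3.44, SE 0.65, adjusted p = 0.000244). P4ha1, a collagen prolyl hydroxylase, rose in CML (log2 fold change 0.40, SE 0.089, adjusted p = 0.00124) and did not pass in normal LSKs (0.043, SE 0.089, adjusted p = 0.737).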

How the data were processed

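The authors deposited raw read counts per gene, without normalization, for 24 libraries, and a column of gene length in kilobases. Per the labels and the methods, reads of 101 bases at both ends went through Trimmomatic and FASTP, then STAR 2.6.0 on mm10, and were counted per gene by HTSeq 0.11.1. The annotation, strand setting and treatment of reads with several placements are not given in the sources used here. All 24 columns were matched to mice by the numbers in their names, and 0 were left out. The replicate numbers only name libraries. The methods state fewer mice a group than the 6 deposited, and all 6 were used.

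Counts were tested in edgeR 4.0.16 (R 4.3.3) with filterByExpr, TMM and the quasi-likelihood test in 1 fit of 24 libraries (common dispersion 0.02838), and adjusted over 13520 genes. The likelihood ratio test that the methods name was an alternative, as were DESeq2 1.42.0, RLE and upper quartile scaling, no filter or at least 1 CPM in 6 libraries, sex as a covariate, only the libraries compared, a threshold of 0.01, and each of the 24 mice left out. The fit was tested on simulated data. CPM values are TMM-scaled, RPKM divides them by the length column, and shares are of RPKM. p-values set a change against the spread between mice within groups, which was estimated from all 24 libraries together. Counting intervals and the limit of 3 counts cover counting error only. Windows, sites and motifs were searched in Python 3.11.15. Levels per length use the lengths of the table, and windows and sites the GENCODE vM21 transcripts.

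All 33 members were named, with full values for those past the threshold in at least 1 of 5 comparisons. In each other list, up to 4 genes were named by smallest adjusted p in either comparison of genotypes if they passed the threshold and averaged 1 CPM or more. The members and lists were chosen with earlier results of these data known.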

Additional observations from a re-analysis of the deposited data

Results flagged for a closer look

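Values were examined for a library far from the other 5 of its group, by the gap to the nearest of them as a share of the group's range (Dixon's test at the 95% level), in 128 groups of values, where chance gives about 1 in 20. There were 17, in 14 members, 9 in miR-142 KO, 5 in BC CML, 2 in WT and 1 in CP CML. Of them, 7 were miR-142 KO library 3, which stood apart over all genes. In it Ldha was at 744 CPM (next 429), Pkm at 654 (473), Tpi1 at 292 (205), Pfkl at 204 (149), Slc2a1 at 39.2 (28.4) and Pgk1 at 19.1 (next 13.04), each the highest of the group, and Pfkfb4 at 9.07 (13.9), the lowest.

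In the rest of the miR-142 KO group, Slc2a3 was highest in library 2 at 132 CPM and Slc16a7 in library 5 at 20.2. In WT, library 3 was highest for Gpi1 at 433 and for Pgam1 at 9.21. In CP CML, library 1, the shallowest of all, was lowest for Ldhb at 12.9. In BC CML, library 2 was lowest for Eno1 at 2.33 and highest for Slc2a6 at 14.8, library 3 was lowest for Slc2a1 at 33.1, and library 5 was highest for Slc2a3 at 136 and lowest for Slc16a7 at 12.1.

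The test of the difference between the miR-142 effects in CML and normal LSKs passed for Pklr (log2 fold change -4.50, SE 1.16, adjusted p = 0.028) and Pfkfb3 (log2 fold change -0.27, SE 0.071, adjusted p = 0.035). These were 2 of 32 members (6.25%), where 3.99% of all genes passed. The Pklr call was lost without BC CML 1 and the Pfkfb3 call without WT 1, and 0 members passed at an adjusted p below 0.01. Pklr had 0 to 2 counts in the BC CML libraries, so its size depends on the prior count.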

How the results depend on the processing

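Of 73 calls of members in the 5 comparisons, 61 held at an adjusted p below 0.05 under each other fit that tested them and with each library left out. With only the libraries compared 7 were lost, without at least 1 library 10 were lost, and 0 values reversed in direction. Pklr in BC CML against miR-142 KO, counted among the 61, failed the count filter with only the libraries compared and was not tested there. At an adjusted p below 0.01, 56 of the 73 remained. None was lost under the likelihood ratio test, DESeq2, RLE, upper quartile scaling, either filter or sex as a covariate. With each mouse left out, members called ranged from 10 to 12 in BC CML against CP CML (4404 to 5608 of all genes), 18 to 23 in miR-142 KO against WT (4246 to 5062), 21 to 22 in CP CML against WT (5348 to 6542), 17 to 24 in BC CML against miR-142 KO (4542 to 6471), and 1 to 4 for the difference between effects (375 to 787), which gave 1 without WT 1 or BC CML 1 and 4 without WT 3. At an adjusted p below 0.01, 12 members and 3167 of all genes passed in miR-142 KO against WT. For the difference between effects, 0 members and 135 of all genes did. For that difference, DESeq2 at 0.05 gave 3 members and 891 of all genes. In edgeR 6 members had an unadjusted p below 0.05, a count not made for all genes. Upper quartile scaling moved the share of higher calls among all genes from 53.7% to 42.4% in BC CML against CP CML and from 54.7% to 42.0% in miR-142 KO against WT, and the members' calls were then 5 higher and 5 lower, and 16 higher and 6 lower. At limits of 5 and 20 RPKM, 23 and 13 members were abundant, and 16 over library totals. No paired analysis was possible because the replicate numbers were given in accession order and tie no mice across groups. Depth limits Pklr and Pgam2, and the part of copies in the counts of Gapdh, Pgk1, Pgam1 and Eno1 was not tested.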

Other observations

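Epas1 differed between the sexes of the miR-142 KO group. The 3 females were at 106.8 to 128 CPM (median 125) and the 3 males at 12.7 to 17.8 (16.8), with no overlap. In BC CML, females were at 45.8 to 74.1 (73.3) and males at 38.1 to 42.4 (38.2). In WT, females were at 1.31 to 3.40 and males at 0.689 to 4.27, and in CP CML at 1.52 to 4.37 and 1.66 to 2.58, so both sexes without miR-142 lay above both with it. This was noticed after the values were seen, the sex difference was not tested, and litter or day of sorting, which the labels do not give, cannot be told apart from sex in 3 mice a side.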
